A study of Mus musculus with 2 samples.

Results

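Cells with an NK/ILC1-like profile and a high count of Gzmc, a granzyme gene, are described here within the double-negative 1 (DN1) compartment of the embryonic mouse thymus. They were selected on measured values. A cell barcode was kept with at least 500 genes, at most 10% mitochondrial unique molecular identifiers (UMIs) and at most 1 UMI of Krt8, Krt18 and Prss16 together. It entered the NK/ILC1-like gate when Xcl1, Ccl5, Nkg7 and Klrd1 together made at least 1000 CPM (UMIs of a gene scaled to a common total, as counts per 1e6 UMIs), Cd3d was under 300 CPM and Cd8b1 under 3 UMIs. Of the 6057 barcodes deposited, 5187 were kept, 1506 passed the gate, and 268 of those held at least 5 Gzmc UMIs. These 268 Gzmc-high cells made 5.17% of the kept barcodes, and the other cells of the gate are called Gzmc-low cells.

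Natural killer (NK) cells and group 1 innate lymphoid cells (ILC1) are lymphocytes without rearranged antigen receptors that kill target cells and secrete interferon gamma and chemokines. Granzymes are serine proteases stored in cytotoxic granules and delivered into a target through pores made by perforin. In the mouse, Gzmc lies in a cluster of related granzyme genes with Gzmb, and it is known from strongly stimulated cytotoxic lymphocytes and from tissue-resident ILC1.

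The series holds 2 samples, titled E15.5_DN1 and E19.5_DN1. Each is 1 droplet library (10x 3' v3) of DN1 cells purified by flow cytometry from the thymus of embryos of the strain 5x polychromILC. Both share this strain, which is known to carry fluorescent or surface reporters of lineage factors, and those at Id2, Gata3, Rora and Bcl11b are described here. The table pools the libraries, and its barcodes end in suffix 1 (2182 barcodes) or suffix 2 (3875 barcodes). No label ties a suffix to a stage, so no stage comparison was made, and library and stage cannot be told apart. The extraction label describes lysis to nuclei, and whether cells or nuclei were loaded is not known. With 1 library for each suffix and no replicate, no test was run, and the 95% intervals cover counting error only. Gzmc-high cells of suffix 2 (224) had a median of 11921 UMIs, against 10087 in the 288 Gzmc-low cells. Those of suffix 1 (44) had a median of 14477 UMIs, against 10914 in the 950 Gzmc-low cells. Of the barcode sequences, 25 occurred under both suffixes, and 0 of the Gzmc-high cells were among them. In sums over cells, fewer cells expressing a gene and less RNA per cell cannot be told apart, so shares of cells are given too, after thinning every cell to 5000 UMIs.

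Defining NK/ILC1 genes that the selection did not use were high in these cells. They were set beside the other kept barcodes, which are the 4919 kept barcodes not selected, Gzmc-low cells included. Ncr1, which encodes the activating receptor NKp46, had 166.5 CPM in Gzmc-high cells and 25.9 CPM in the other kept barcodes, a log2 ratio of 2.68 (2.55 to 2.81). Tbx21, which encodes the transcription factor T-bet, had 52.1 CPM in Gzmc-high cells and 7.87 CPM in the others. Klrk1, the NKG2D receptor gene, had 669.5 CPM in Gzmc-high cells and 109 CPM in the others, and Il2rb, the receptor chain shared by interleukins 2 and 15, had 197 CPM in Gzmc-high cells and 32.3 CPM in the others. Eomes, a T-box factor gene of conventional NK cells, had a low level but was also higher, with 14.5 CPM in Gzmc-high cells and 1.92 CPM in the others. Several defining markers of other cell types were at 0: no UMI of Cd4, Rag1, Dntt, Ebf1, Pax5, Cd14, Foxn1 or Psmb11 was counted in Gzmc-high cells, where a count of 0 allows up to 0.777 CPM (3 UMIs). In Gzmc-high and Gzmc-low cells of suffix 2 the B lineage list summed to 20.6 and 32.7 CPM, with 6 of 9 markers at 0 in each. Thymic epithelium summed to 59.5 and 50.5 CPM, with 7 and 5 of 11 markers at 0 in the same order. The alpha-beta thymocyte list summed to 76.0 and 110 CPM, with 2 of 11 at 0 in each. The epithelial list includes Krt8, Krt18 and Prss16, and the alpha-beta list includes Cd3d and Cd8b1, all held down by the rule. Those sums and zeros are thus partly fixed by the selection, and the gamma-delta T list below also includes Cd3d. The ILC2 list summed to 379 and 605.5 CPM in Gzmc-high and Gzmc-low cells of suffix 2. The early T progenitor list summed to 221 and 280 CPM in the same order, and myeloid markers to 312 and 334.5 CPM, mostly Ccr2. The DN2/DN3 T-committed list was higher, with 2672 CPM in Gzmc-high and 1727 CPM in Gzmc-low cells of suffix 2, 1906 and 1331 CPM in those of suffix 1, and 1268 CPM in the other kept barcodes. Most of it was Cd3g, with 2287 CPM in Gzmc-high and 1253 CPM in Gzmc-low cells of suffix 2, followed by Lck, a kinase gene of T and NK cells, with 230 and 220 CPM; Rag1, Rag2 and Dntt were at 0 in those Gzmc-high cells. The part of T-committed genes in the results was not tested. Among other T cell markers, Cd3e had 6.99 CPM in Gzmc-high cells and 47.9 CPM in the others, and Cd5 had 0.259 CPM in Gzmc-high cells and 8.32 CPM in the others. The rule left out cells with high Cd3d, which encodes another CD3 chain, so these values may be partly fixed by the selection. Outside the gate, 53 kept barcodes held at least 5 Gzmc UMIs, 44 of which failed for Cd3d, and Cd3e had 57.2 CPM in the 53. The gamma-delta T marker list summed to 370 CPM in Gzmc-high and 326 CPM in Gzmc-low cells of suffix 2, of which Cd163l1 alone gave 284.5 CPM in Gzmc-high and 196 CPM in Gzmc-low cells. Its other defining members Sox13 and Blk had 2 UMIs each in the Gzmc-high cells of suffix 2, and Il17a had 0. The gamma-delta T genes' part in the results was not tested.

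The 250 bases before the annotated start of Gzmc, Gzmb and Ccl1 are shown because these genes lead what follows. Sequences are from RefSeq on GRCm38.p6, all on the minus strand and written in the direction of transcription: Gzmc at chr14:56234658-56234907, Gzmb at chr14:56262335-56262584 and Ccl1 at chr11:82179813-82180062. Capitals mark matches, on either strand, to a Runx motif (TGTGGT) or an AP-1 motif (TGANTCA).
Gzmc: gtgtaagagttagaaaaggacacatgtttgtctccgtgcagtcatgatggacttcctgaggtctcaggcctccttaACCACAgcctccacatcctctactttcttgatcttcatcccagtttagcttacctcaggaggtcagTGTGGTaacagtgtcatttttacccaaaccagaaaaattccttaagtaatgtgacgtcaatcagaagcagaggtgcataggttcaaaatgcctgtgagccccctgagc
Gzmb: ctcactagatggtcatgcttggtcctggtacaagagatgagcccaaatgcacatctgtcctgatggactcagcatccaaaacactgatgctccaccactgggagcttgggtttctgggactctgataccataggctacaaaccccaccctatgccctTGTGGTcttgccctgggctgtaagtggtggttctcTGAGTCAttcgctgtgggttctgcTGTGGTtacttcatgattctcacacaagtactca
Ccl1: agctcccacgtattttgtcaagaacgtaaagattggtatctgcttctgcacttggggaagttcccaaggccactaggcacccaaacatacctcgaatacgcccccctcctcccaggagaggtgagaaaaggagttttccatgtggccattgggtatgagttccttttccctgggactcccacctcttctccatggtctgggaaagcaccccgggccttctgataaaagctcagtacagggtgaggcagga

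The Gzmc stretch held the Runx letters at -174 and -108 from the start, and the Gzmb stretch at -93 and -34, with an AP-1 match at -58. No match to these motifs, nor to a T-box motif (GGTGTGA), was found in the Ccl1 stretch, and the T-box letters were in none of the 3. Among 32851 promoter stretches of the same length, 14.1% held the Runx letters, 6.75% the AP-1 letters and 3.33% the T-box letters. A match describes the letters and shows no bound site. In the gene annotation (GENCODE M21, GRCm38), Gzmc spans chr14:56231441-56234656 and Gzmb chr14:56258838-56262260. No 60-base word in the last 400 bases of the Gzmc, Gzmb or Ccl1 transcript occurred in a transcript of another gene, so their reads can be told from those of the related granzyme and chemokine genes.

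Gzmc varied over a wide range among these cells. Its level in single Gzmc-high cells of suffix 2 had a lowest value of 192, a median of 3427 and a highest of 43534 CPM, and in UMIs 5, 39 and 725. In Gzmc-low cells of that suffix the median was 0 and the highest value 1807 CPM, and 173 of the 288 cells had no Gzmc UMI. Summed over cells, Gzmc stood at 6051 CPM in Gzmc-high and 66.5 CPM in Gzmc-low cells of suffix 2. In suffix 1 the level was lower, with a lowest value of 176, a median of 831 and a highest of 5415 CPM in the 44 Gzmc-high cells, and a median of 0 in Gzmc-low cells. The rule fixes these differences, and they are given as a description only.

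**Figure D1:**
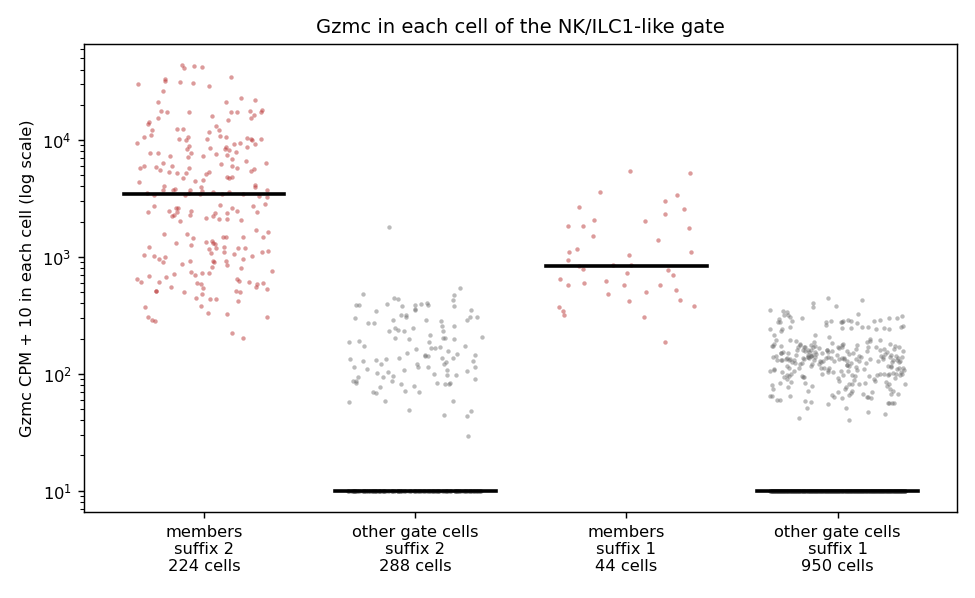
Gzmc level of every cell in the gate, as CPM plus 10 on a log axis, with 1 point per cell and a line at the median of each group. Gzmc-high cells (red, "members") have medians of 3427 CPM in suffix 2 and 831 CPM in suffix 1, while the median of the Gzmc-low cells (grey, "other gate cells") is 0 in both.

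The selected cells were 224 of the 512 gate cells of suffix 2, or 43.8% (39.4 to 48.2%, Clopper-Pearson interval), and 44 of the 994 gate cells of suffix 1, or 4.43% (3.23 to 5.90%). At the threshold, 11 cells held exactly 5 Gzmc UMIs and were selected, and 29 cells of the gate held exactly 4 and were not. After thinning to 5000 UMIs, 99.1% of Gzmc-high cells and 29.6% of Gzmc-low cells of suffix 2 kept a Gzmc UMI, against 7.72% of the other kept barcodes, whose median depth was 14171 UMIs. The other kept barcodes include the Gzmc-low cells, and the rule uses Gzmc, so these shares are a description only.

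The granzyme and cytotoxic granule genes did not differ in a common direction. Of 24 genes on that list, 14 outside the rule reached 20 UMIs in suffix 2, and their median log2 ratio, Gzmc-high over Gzmc-low cells, was 0.03, beside -0.02 for all 9378 genes compared. Gzmb and Prf1 were the 2 above 1, and 0 were below -1. Among all genes compared, 1.15% were above 1 and 2.30% below -1. Of the other genes in the Gzmc cluster, Gzmd, Gzme, Gzmg and Gzmn had no UMI in Gzmc-high cells and Gzmf had 1. A sum over Gzmc-high cells of both suffixes of 3860805 UMIs stood behind those zeros.

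Gzmb, which encodes granzyme B, had 238 CPM in Gzmc-high and 80.7 CPM in Gzmc-low cells of suffix 2, a log2 ratio of 1.56 (1.36 to 1.76). It was found in a minority of cells: after thinning, 23.2% of Gzmc-high cells (17.8 to 29.3%) and 12.4% of Gzmc-low cells (8.75 to 16.9%) had a Gzmb UMI. In suffix 1 its level was 287 CPM in Gzmc-high and 70.0 CPM in Gzmc-low cells, so the direction was shared. Without the cell with the most Gzmb UMIs in each group, it had 192 CPM in Gzmc-high and 70.5 CPM in Gzmc-low cells of suffix 2.

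Gzma, encoding the tryptase granzyme A, went the other way, with 660 CPM in Gzmc-high and 1058 CPM in Gzmc-low cells of suffix 2 (log2 ratio -0.68, -0.76 to -0.60). The share of cells with a Gzma UMI after thinning was 50.9% of Gzmc-high and 52.9% of Gzmc-low cells. In suffix 1 Gzma stood at 2265 CPM in Gzmc-high and 2878 CPM in Gzmc-low cells. Prf1, the perforin gene, was scarce, with 48 UMIs in Gzmc-high and 24 in Gzmc-low cells of suffix 2. The share of cells with it after thinning was 4.09% of Gzmc-high and 3.28% of Gzmc-low cells, values that could not be told apart at this depth. Ctsw, the cathepsin W gene of cytotoxic lymphocytes, was found in nearly all cells and had 1544 CPM in Gzmc-high and 1187 CPM in Gzmc-low cells. Srgn, the granule proteoglycan serglycin, had 1138 CPM in Gzmc-high and 1154 CPM in Gzmc-low cells.

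Among secreted factors, Ccl1, a chemokine that attracts cells bearing CCR8, had the highest ratio among the named genes outside the rule. It had 821.5 CPM in Gzmc-high and 43.6 CPM in Gzmc-low cells of suffix 2 (log2 ratio 4.24, 3.99 to 4.49). Few cells carried it: 49 of 224 Gzmc-high cells and 12 of 288 Gzmc-low cells had a Ccl1 UMI. After thinning the shares were 14.1% of Gzmc-high cells (9.78 to 19.4%) and 1.82% of Gzmc-low cells (0.595 to 4.21%). Among the Gzmc-high cells, 10 cells held 86.3% of the Ccl1 UMIs, and the highest cell had 655. A single cell held 83% of the Ccl1 UMIs of the Gzmc-low cells. Without the cell with the most Ccl1 UMIs in each group, the levels were 618 CPM in Gzmc-high and 7.44 CPM in Gzmc-low cells.

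Suffix 1 did not share this pattern once cells were counted. There the Ccl1 sum was 392.5 CPM in Gzmc-high and 24.6 CPM in Gzmc-low cells, but only 3 Gzmc-high cells carried it. Without the cell with the most UMIs in each group it had 3.12 CPM in Gzmc-high and 19.7 CPM in Gzmc-low cells, the opposite order. The thinned shares were 2.33% of Gzmc-high (0.0589 to 12.3%) and 6.95% of Gzmc-low cells (5.38 to 8.80%).

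The 224 Gzmc-high cells of suffix 2 were then set apart by their Ccl1 count, a split chosen after its values were seen. Cells with at least 10 Ccl1 UMIs numbered 19 (median 15749 UMIs), those with 1 to 9 numbered 30 (median 14458), and 175 had none (median 11626). Gzmc stood at 8668 CPM in the 19 cells, 7364 CPM in the 30 and 5393 CPM in the 175, and Xcl1, the lymphotactin gene, at 6940, 4625 and 2780 CPM in the same order. Crtam, a receptor gene of activated cytotoxic cells, had 78.8 CPM in the 19 cells, with a UMI in 8 of them, and 4.65 CPM in the 175, with a UMI in 9. Ccl4, another chemokine gene, had a UMI in 10 of the 19 cells and in 12 of the 175, although 1 cell held 87.4% of its UMIs in the 19. Il7r, the interleukin 7 receptor gene, and Lag3, an inhibitory receptor gene, varied less, with 175 and 84.6 CPM in the 19 cells and 211 and 80.8 CPM in the 175. Depth moved with this split, and its part was not tested.

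Ifng, the interferon gamma gene, had 172 CPM in Gzmc-high and 90.2 CPM in Gzmc-low cells of suffix 2 (log2 ratio 0.93, 0.73 to 1.14). The thinned shares overlapped, at 37.3% of Gzmc-high (30.9 to 44.0%) and 32.5% of Gzmc-low cells (27.0 to 38.4%). In suffix 1 the order turned, with 103 CPM in Gzmc-high and 129 CPM in Gzmc-low cells. Of the 18 genes listed as type 1 cytokines and chemokines, 15 were compared in suffix 2. Their median log2 ratio was 0.24, beside -0.02 for all genes compared, of which 1.15% were above 1 and 2.30% below -1. Of the 15, 4 were above 1 (Ccl1, Ccl3, Ccl4 and Csf2) and 1, Tnfsf11, was below -1.

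Those 4 rested on few cells. Ccl3 had a UMI in 11 Gzmc-high and 6 Gzmc-low cells of suffix 2, and 1 cell held 56.4% of its UMIs among the Gzmc-high cells. Ccl4 had 116 CPM in Gzmc-high and 44.5 CPM in Gzmc-low cells, of which single cells held 68.8% and 80.0%. Without those cells the Ccl4 levels were 36.4 CPM in Gzmc-high and 8.96 CPM in Gzmc-low cells. Ltb, the lymphotoxin beta gene, was broad and lower, with 461 CPM in Gzmc-high and 618 CPM in Gzmc-low cells, while in suffix 1 it had 807 CPM in Gzmc-high and 642 CPM in Gzmc-low cells. Tnfsf10, which encodes the death ligand TRAIL typical of ILC1, had 188 CPM in Gzmc-high and 143 CPM in Gzmc-low cells of suffix 2, and 124 and 83.1 CPM in those of suffix 1.

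**Figure D2:**
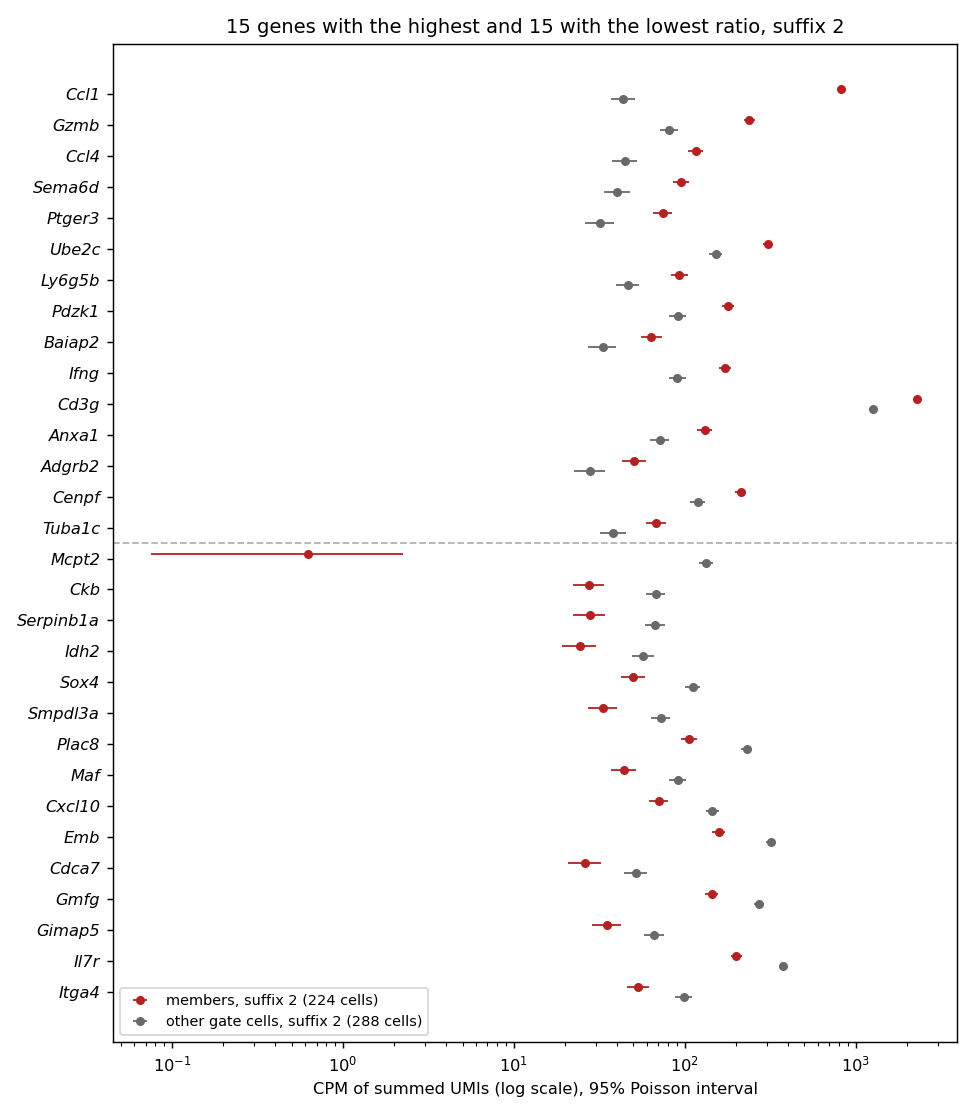
CPM of summed UMIs (log axis, 95% Poisson intervals) in the 224 Gzmc-high cells (red, "members") and 288 Gzmc-low cells (grey) of suffix 2, for the 15 genes with the highest ratio above the dashed line and the 15 with the lowest below it. Ccl1, Gzmb and Cd3g lie higher in Gzmc-high cells, and Plac8, Emb and Il7r lie lower.

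The genes with the highest ratios in suffix 2, taken from those of at least 50 CPM in either group and outside the rule, also held several that were spread over many cells. Sema6d, a transmembrane semaphorin gene, had 95.1 CPM in Gzmc-high and 40.1 CPM in Gzmc-low cells, with thinned shares of 32.3% of Gzmc-high and 18.6% of Gzmc-low cells. Ptger3, a prostaglandin E2 receptor gene, had 74.2 CPM in Gzmc-high and 31.8 CPM in Gzmc-low cells, with shares of 29.1% of Gzmc-high and 12.4% of Gzmc-low cells. Pdzk1, a scaffold protein gene, had 179 CPM in Gzmc-high and 91.1 CPM in Gzmc-low cells, with shares of 54.1% of Gzmc-high and 32.5% of Gzmc-low cells. In none of the 3 did 1 cell hold more than 8.89% of a group's UMIs. Anxa1, the annexin A1 gene, had 131 CPM in Gzmc-high and 71.5 CPM in Gzmc-low cells. Ly6g5b, of the Ly6 family, had 92.6 CPM in Gzmc-high and 46.3 CPM in Gzmc-low cells. Baiap2 and Adgrb2 had log2 ratios of 0.95 and 0.86.

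Cd3g, a chain of the CD3 signalling complex, was the broadest of these genes. In single Gzmc-high cells of suffix 2 its level had a lowest value of 207, a median of 2272 and a highest of 6328 CPM, and in Gzmc-low cells 0, 1184 and 4519 CPM. The groups overlapped, but every Gzmc-high cell had a Cd3g UMI, against 261 of 288 Gzmc-low cells. Summed, it had 2287 CPM in Gzmc-high and 1253 CPM in Gzmc-low cells (log2 ratio 0.87, 0.81 to 0.92). In suffix 1 it had 1599 CPM in Gzmc-high and 1043 CPM in Gzmc-low cells (0.62, 0.52 to 0.71). Cd247, the zeta chain gene, had log2 ratios of 0.78 in suffix 2 and 0.54 in suffix 1, whereas Cd3e had 7.17 CPM in Gzmc-high and 12.8 CPM in Gzmc-low cells of suffix 2. Cd3d was held down by the rule. Across the 22 CD3 and ITAM adaptor genes compared outside the rule, the median log2 ratio was 0.05 in suffix 2, and it was 0.29 over 19 in suffix 1.

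The 15 genes with the lowest ratios differed in how many cells carried them. Sox4, a factor gene of progenitors, had 49.9 CPM in Gzmc-high and 111 CPM in Gzmc-low cells of suffix 2 (log2 ratio -1.16, -1.43 to -0.89). Plac8 had 105 CPM in Gzmc-high and 229 CPM in Gzmc-low cells, although the thinned share of cells was 11.8% of Gzmc-high and 11.7% of Gzmc-low cells. Its sum thus came from few cells with many UMIs, the highest holding 20.4% of the total in Gzmc-high and 12.0% in Gzmc-low cells. Plac8 differed further in suffix 1, with 107 CPM in Gzmc-high and 291.5 CPM in Gzmc-low cells, and shares of 6.98% of Gzmc-high and 42.3% of Gzmc-low cells.

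Il7r, the receptor for a survival cytokine of ILC, was broad. It had 200 CPM in Gzmc-high and 376 CPM in Gzmc-low cells of suffix 2, with shares of 48.2% of Gzmc-high (41.4 to 55.0%) and 67.2% of Gzmc-low cells (61.2 to 72.7%). In suffix 1 the order turned, with 82.8 CPM in Gzmc-high and 51.1 CPM in Gzmc-low cells. Emb, encoding the adhesion protein embigin, had shares of 40.9% of Gzmc-high and 63.5% of Gzmc-low cells of suffix 2. Gmfg, a regulator of actin branching, had shares of 39.5% of Gzmc-high and 61.7% of Gzmc-low cells. Smpdl3a had shares of 11.4% of Gzmc-high and 35.8% of Gzmc-low cells, and Maf, a transcription factor gene, 19.1% of Gzmc-high and 35.8% of Gzmc-low cells. These 4 were lower in many cells rather than in a few. Gmfg, Idh2, Serpinb1a, Ckb and Plac8 were lower in Gzmc-high cells of suffix 1 too, with log2 ratios of -0.77, -1.73, -1.83, -0.55 and -1.44. Cdca7, Itga4 and Maf had ratios of 0.10, 0.01 and 0.21 there, and Gimap5 one of -0.27. The low ratios of Mcpt2 and Cxcl10 came from 1 cell each, which held 99.8% and 81.7% of the UMIs of the Gzmc-low cells.

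**Figure D3:**
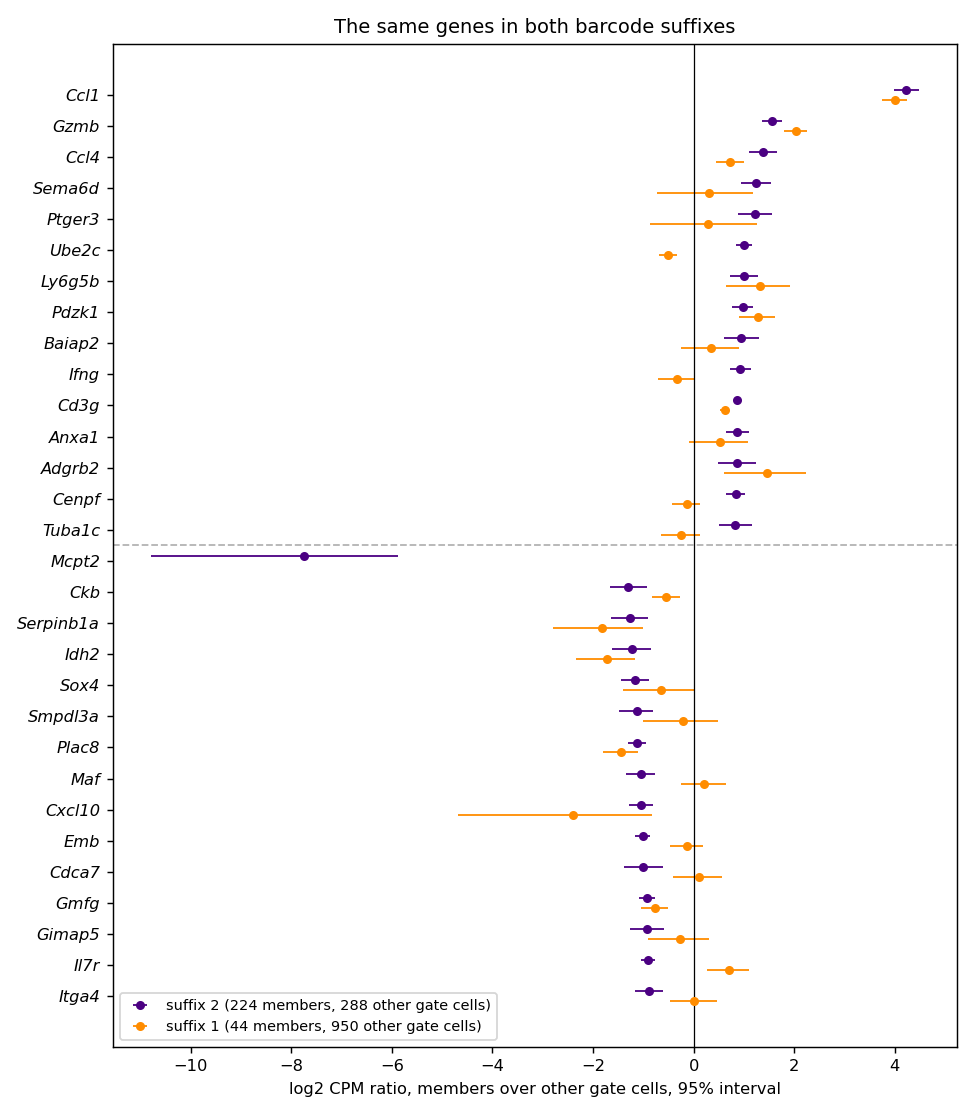
Log2 CPM ratio of Gzmc-high over Gzmc-low cells, with 95% intervals, for the same 30 genes in suffix 2 (indigo) and suffix 1 (orange). Gzmb, Cd3g, Pdzk1 and Ly6g5b lie right of 0 and Plac8, Idh2 and Gmfg left of 0 in both, while Ifng, Ube2c and Il7r change sides; Mcpt2 has no value in suffix 1.

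In suffix 1, where 5439 genes reached 200 UMIs over both groups, 0.735% were above 1 and 1.77% below -1, and the median over all genes was 0.06. Of the 15 genes with the highest ratio in suffix 2, Gzmb, Pdzk1, Ly6g5b, Adgrb2 and Cd3g had intervals above 0 in suffix 1, and so did the sums of Ccl1 and Ccl4. Ube2c had an interval below 0. Of all genes compared in suffix 1, 13.1% had an interval above 0 and 8.33% one below 0. Ly6c2, a surface antigen gene given as a marker of these cells, went with the suffix and not with Gzmc. It had 43.9 CPM in Gzmc-high and 44.8 CPM in Gzmc-low cells of suffix 2, and 3.07 CPM in Gzmc-high and 5.65 CPM in Gzmc-low cells of suffix 1. Part of its transcript end is shared with Ly6c1 (65 of 341 words of 60 bases), so reads could be split between them. Sema6d and Ptger3 were also low in suffix 1, with 16.9 and 13.8 CPM in Gzmc-high and 13.6 and 11.3 CPM in Gzmc-low cells.

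NK receptor genes leaned to the Gzmc-high cells, by small ratios in suffix 2. Of 37 on the list, 22 outside the rule were compared in suffix 2, with a median log2 ratio of 0.19. There 1 was above 1 (Crtam) and 0 below -1, and 12 intervals lay above 0 and 2 below 0. Of all genes compared in suffix 2, 1.15% were above 1 and 2.30% below -1. An interval above 0 was found for 7.26% of them and one below 0 for 8.15%. Klrk1 had 676 CPM in Gzmc-high and 653 CPM in Gzmc-low cells, and Ncr1 175 CPM in Gzmc-high and 176 CPM in Gzmc-low cells. Cd160 had 618 CPM in Gzmc-high and 518 CPM in Gzmc-low cells, and Fcer1g, the adaptor of activating receptors, 2022 CPM in Gzmc-high and 1629 CPM in Gzmc-low cells. Klrb1b, an inhibitory receptor gene, was lower, with 135 CPM in Gzmc-high and 191 CPM in Gzmc-low cells. Of the Ly49 receptor genes, Klra1, Klra4, Klra6, Klra7, Klra8 and Klra10 had no UMI in Gzmc-high cells, Klra3 had 2 and Klra9 had 1. Klra5 was abundant, with 304 CPM in Gzmc-high and 189 CPM in Gzmc-low cells of suffix 2, and 52.1 and 77.5 CPM in those of suffix 1. In suffix 1 the list median was 0.50 over 19 genes, of which 17 were above 0, with 12 intervals above 0 and 1 below 0.

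The lists that separate ILC1 from NK cells gave no single direction. For the ILC1 list the median log2 ratio was -0.42 over 17 genes in suffix 2, with 0 above 1 and 4 below -1, and 0.33 over 15 genes in suffix 1. In suffix 2, 4 of the 17 had an interval above 0 and 9 one below 0. In suffix 1, 8 of the 15 had one above 0 and 0 one below 0. Among all genes compared, the shares above and below 0 were 7.26% and 8.15% in suffix 2, and 13.1% and 8.33% in suffix 1. The 4 below -1 in suffix 2 were Rora, Tnfrsf25, Cd200r1 and Cd200r2, with ratios of -1.34, -1.25, -1.17 and -1.12, the last on 7 UMIs in Gzmc-high and 16 in Gzmc-low cells. In suffix 1 these 4 had ratios of -0.02, -0.19, 0.15 and 0.23. For the NK list the median log2 ratio was -0.37 over 11 genes in suffix 2 and -0.10 over 4 genes in suffix 1. In suffix 2, 2 of the 11 were above 1, Gzmb and Prf1, which are also on the granzyme list. Below -1 was 1, Cma1, which is also on the mast cell or basophil marker list. Of the 11, 3 had an interval above 0 and 3 one below 0. Over all genes compared in suffix 2, 1.15% were above 1 and 2.30% below -1. Itgae, encoding the CD103 integrin of tissue-resident lymphocytes, was higher in both suffixes, with 413 CPM in Gzmc-high and 294 CPM in Gzmc-low cells of suffix 2, and 190 and 100.3 CPM in those of suffix 1. Itga1, which encodes the CD49a integrin of ILC1, had 170 CPM in Gzmc-high and 155 CPM in Gzmc-low cells of suffix 2, and 92.0 and 57.3 CPM in those of suffix 1. Cxcr6, a chemokine receptor gene of tissue residency, had 205 CPM in Gzmc-high and 240 CPM in Gzmc-low cells of suffix 2, against 547 and 241 CPM in those of suffix 1. Inpp4b had log2 ratios of 0.49 and 1.18 in suffix 2 and suffix 1.

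**Figure D4:**
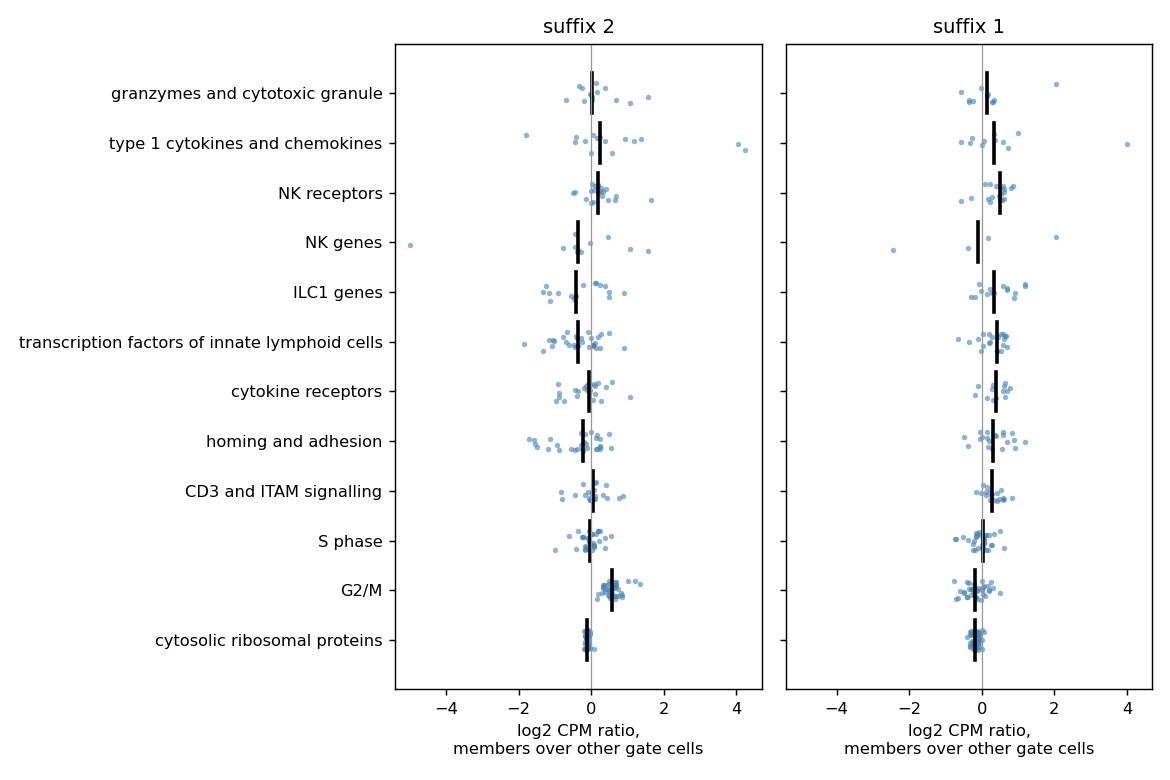
Log2 CPM ratio of Gzmc-high over Gzmc-low cells for each compared gene (points) of 12 lists, outside the rule, in suffix 2 (left) and suffix 1 (right), with a line at the list median. The G2/M median is 0.57 in suffix 2 and -0.18 in suffix 1, and the ribosomal median is below 0 in both.

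Transcription factors of innate lymphoid cells had a median log2 ratio of -0.37 over 31 genes in suffix 2, with 0 above 1 and 6 below -1, and of 0.41 over 21 genes in suffix 1. The 6 were Bcl11b, Rora, Sox4, Myb, Maf and Lef1. In suffix 2, 1.15% of all genes compared were above 1 and 2.30% below -1. There 2 of the 31 had an interval above 0 and 10 one below 0, against 7.26% and 8.15% of all genes compared. In suffix 1, 8 of the 21 had one above 0 and 1 one below 0, against 13.1% and 8.33%. Id2, the repressor of E proteins on which ILC depend, had 626 CPM in Gzmc-high and 579 CPM in Gzmc-low cells of suffix 2. Tbx21 had 52.7 CPM in Gzmc-high and 51.3 CPM in Gzmc-low cells, and Eomes 16.2 CPM in Gzmc-high and 21.1 CPM in Gzmc-low cells. Zfp683, encoding Hobit, a factor of resident lymphocytes, was counted only 25 times in Gzmc-high and 14 times in Gzmc-low cells. Tcf7, encoding TCF-1, was lower, with 119 CPM in Gzmc-high and 181 CPM in Gzmc-low cells of suffix 2, and 133 and 101 CPM in those of suffix 1.

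Rora and Bcl11b, 2 of the reporter loci, were lower in suffix 2. Rora, a factor gene of ILC2 and ILC1, had 18.4 CPM in Gzmc-high and 46.6 CPM in Gzmc-low cells of suffix 2 (log2 ratio -1.34, -1.80 to -0.90), and 50.6 and 51.3 CPM in those of suffix 1. Bcl11b, the T commitment factor gene, had 7.17 CPM in Gzmc-high and 25.8 CPM in Gzmc-low cells of suffix 2. Gata3 had 48.6 CPM in Gzmc-high and 51.4 CPM in Gzmc-low cells. The reporters were read per UMI of their locus: tagBFP, reporter for Id2, had 2.73 UMIs for each Id2 UMI in Gzmc-high and 2.84 in Gzmc-low cells of suffix 2, and hCD2, for Gata3, 0.545 and 0.584. The mTeal reporter of Rora had 0.475 UMIs for each Rora UMI in Gzmc-high (28 over 59 UMIs) and 0.306 in Gzmc-low cells (48 over 157 UMIs), while its own UMIs were fewer in Gzmc-high cells. TdTomato, for Bcl11b, had 1 UMI in each group.

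Homing and adhesion genes had a median log2 ratio of -0.22 over 30 genes in suffix 2, with 0 above 1 and 6 below -1, and of 0.31 over 20 genes in suffix 1. In suffix 2, 1.15% of all genes compared were above 1 and 2.30% below -1. There 4 of the 30 had an interval above 0 and 13 one below 0, against 7.26% and 8.15% of all genes compared. In suffix 1, 10 of the 20 had one above 0 and 1 one below 0, against 13.1% and 8.33%. The 6 below -1 in suffix 2 were Cxcr4, Ccr6, Ccr9, Itgb3, Itga6 and S1pr1. They include the receptors for stromal CXCL12 (Cxcr4) and for the egress signal sphingosine 1-phosphate (S1pr1), with ratios of -1.70 and -1.15. Cytokine receptors had a median of -0.07 over 24 genes in suffix 2 and of 0.38 over 13 in suffix 1. Ifngr1, the interferon gamma receptor chain, had 201 CPM in Gzmc-high and 337 CPM in Gzmc-low cells of suffix 2, and Il2rb 208.5 and 192 CPM. Tgfbr2, a receptor for TGF-beta, had ratios of 0.42 in suffix 2 and 0.77 in suffix 1. Of the survival genes, Bcl2 had ratios of -0.52 (-0.75 to -0.29) in suffix 2 and -0.43 (-0.998 to 0.088) in suffix 1.

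Genes of the G2 and M phases were higher in Gzmc-high cells of suffix 2 and not in those of suffix 1. All 39 genes of the list had a ratio above 0 in suffix 2, where 46.6% of all genes compared did. Their median was 0.57, and 3 were above 1, where 1.15% of all genes compared were. Of the 39, 34 had an interval above 0 and 0 one below 0, against 7.26% above and 8.15% below among all genes compared. In suffix 1 the median was -0.18 over 38 genes, of which 13 had a ratio above 0, where 57.2% of all genes compared did, 1 had an interval above 0 and 9 one below 0. Mki67, the proliferation marker, had 305 CPM in Gzmc-high and 184 CPM in Gzmc-low cells of suffix 2, and 282 and 278 CPM in those of suffix 1. The summed G2/M UMIs of cells thinned to 5000 UMIs had a median of 6 in Gzmc-high and 5 in Gzmc-low cells of suffix 2, so the typical cell differed little. Their upper quartile was 28.8 in Gzmc-high and 14.5 in Gzmc-low cells. This thinning came after the selection, whose Gzmc cut is in UMIs. With cells thinned before the rule, the suffix 2 median of the list was smaller and Cenpf reversed, as given at the end. The part of depth was not tested. S phase genes gave a median of -0.04 in suffix 2 and of 0.02 in suffix 1.

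Cells with 2 or more UMIs of Mki67 and Top2a together were 83 of 224 Gzmc-high cells (37.1%) and 82 of 288 Gzmc-low cells (28.5%) of suffix 2, without adjustment for depth. Gzmc had 4760 CPM in these cycling Gzmc-high cells, against 7296 CPM in the 141 with at most 1 such UMI. Their median depths were 17937 and 10798 UMIs. The rule sets Gzmc in UMIs, so a deeper cell can be selected at a lower Gzmc CPM, and the part of depth was not tested. Gzmb had 250 and 226 CPM in the same order, Il7r 153 and 245.5 CPM, and Cd3g 2120 and 2448 CPM.

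The gate cells of suffix 2 were also ordered by their own Gzmc level, in bins of 0 (173 cells), under 300 (99), 300 to under 1000 (69), 1000 to under 3000 (54) and at least 3000 CPM (117). Cd3g was higher in each next bin, with 1055, 1441, 1731, 2172 and 2767 CPM. Ctsw had 1033 CPM in the lowest and 1721 CPM in the highest bin, Itgae 260 and 489 CPM, Pdzk1 75 and 208 CPM, Sema6d 36 and 118 CPM, and Ptger3 22.1 and 93.9 CPM, each higher in every next bin. Gzmb was uneven, with 65.8, 91.9, 251, 101 and 296 CPM. Plac8 had 328 CPM in the cells without Gzmc and 4.34 and 14.4 CPM in the highest bins, and Sox4 155, 84.0, 91.7, 21.7 and 5.87 CPM. In suffix 1, where the highest bin held 5 cells, Cd3g had 1015, 1102, 1415, 1881 and 1852 CPM and Pdzk1 45.1, 55.1, 72.0, 133 and 221 CPM. The other 4 did not increase from bin to bin there. Sema6d had 13, 16, 13.5, 9.5 and 0 CPM, Ptger3 12.0, 9.28, 20.2, 9.5 and 0 CPM, Itgae 104, 93.7, 193.5, 138 and 138 CPM, and Ctsw 693, 666, 877, 798 and 940 CPM.

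**Figure D5:**
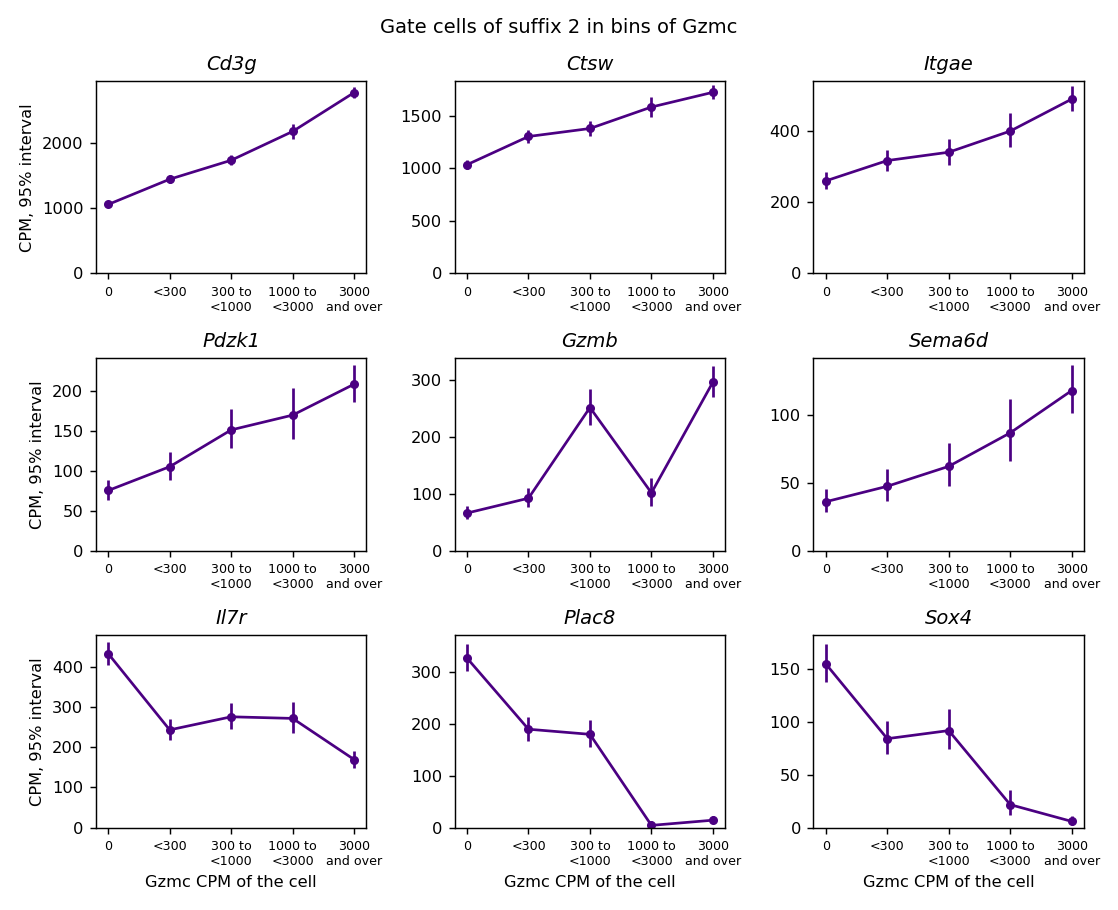
CPM (95% Poisson intervals) of 9 genes in the 512 gate cells of suffix 2, binned by the Gzmc CPM of the cell (173, 99, 69, 54 and 117 cells from left to right). Cd3g, Ctsw, Itgae, Pdzk1 and Sema6d increase from bin to bin, Plac8 and Sox4 are lowest at 1000 CPM of Gzmc and above, and Gzmb is uneven.

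By the rank correlation of CPM with Gzmc over these 512 cells, the genes most like it among 7444 were Cd3g (rho 0.54), Xcl1 (0.40), Ppib (0.35), Pdzk1 (0.35) and Ptger3 (0.35). Ostf1, Nrgn, Sema6d, Ctsw and Itgae followed, the last at 0.32. The cells share 1 library, and total UMIs had a rho of 0.20 with Gzmc. Xcl1 is part of the gate. The lowest values were those of Gmfg (-0.39) and Emb (-0.33).

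By list median, general cell functions differed little between the groups, apart from the fetal programme list. Ribosomal protein genes had a median log2 ratio of -0.11 in suffix 2, where 46 of 47 were below 0, and of -0.18 in suffix 1. The shift was small but shared by most of the list, with 45 intervals below 0 in suffix 2 and 41 in suffix 1. Among all genes compared, 8.15% and 8.33% had such an interval, and 46.6% and 57.2% had a ratio above 0, in suffix 2 and suffix 1. Oxidative phosphorylation genes had medians of 0.07 in suffix 2 and -0.05 in suffix 1, glycolysis genes -0.01 and -0.11, and MHC class I genes 0.06 and 0.14. Interferon response genes had -0.02 in suffix 2 and 0.08 in suffix 1, immediate early genes -0.11 and 0.26, and STAT and SOCS genes -0.12 and 0.12. Of the 5 fetal programme genes compared in suffix 2 all were below 0, with a median of -0.75 and 2 intervals below 0. All 4 compared in suffix 1 were below 0 too, with a median of -0.40 and 1 interval below 0. Hmga2 had a ratio of -1.35 in suffix 2, and Hmga1 had -0.84 in suffix 2 and -1.75 in suffix 1. Igf2bp3, an RNA-binding protein gene of fetal cells, differed least in suffix 2, with 44.6 CPM in Gzmc-high and 55.2 CPM in Gzmc-low cells.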

How the data were processed

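Sorted DN1 cells of 2 embryonic thymus samples gave 1 droplet library each (10x 3' v3, per the labels). The deposited values are UMI counts, whole numbers per gene and barcode (22032 genes). The submitters' processing notes name Cell Ranger 3.0.2, the aligner STAR and the build GRCm38. How the authors called cells is not stated in the labels. No label ties a barcode suffix to a sample, so the planned stage comparison was not run.

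The cells and gene lists were chosen with earlier results of these data known. UMIs were summed per group and scaled to CPM with exact Poisson intervals. Ratios have conditional exact binomial intervals, shares have Clopper-Pearson intervals (95%), and a count of 0 was set at 3. Genes with at least 20 UMIs over both groups were compared in suffix 2, and 200 in suffix 1, where the larger limit was chosen after seeing the data. Named genes were the 15 highest and 15 lowest ratios among genes of at least 50 CPM in suffix 2, the 4 most abundant members of each list, the markers and granzymes, the reporter loci and the 10 genes most like Gzmc; other list members were named after their values were seen. Scrublet in scanpy 1.11.5, run per suffix, called 10 barcodes (0.466%) in suffix 1 and 93 (2.76%) in suffix 2, of which 12 were Gzmc-high cells. They were left in, and the low rate in suffix 1 means that doublets may remain there. T-cell receptor chain genes and 1 locus with its reporter are not reported here. The functions were tested on simulated data. Sums and intervals were computed in Python 3.11.15 (scipy 1.17.1, numpy 2.4.6).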

Additional observations from a re-analysis of the deposited data

Results flagged for a closer look

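Outside the gate, 53 kept barcodes held at least 5 Gzmc UMIs, a signal in cells that the comparisons do not use. Of these, 44 failed for Cd3d, 8 for the sum of Xcl1, Ccl5, Nkg7 and Klrd1, and 1 for Cd8b1. The 53 barcodes had a median of 15649 UMIs, and 46 were of suffix 2. Gzmc stood at 4476 CPM in them, Cd3g at 2055 CPM, Xcl1 at 2340 CPM, Gzmb at 52.1 CPM and Id2 at 544.5 CPM, with Cd3d at 617 CPM and Cd3e at 57.2 CPM.

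Of the 328 barcodes that failed the condition on Krt8, Krt18 and Prss16, 6 held at least 5 Gzmc UMIs.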

How the results depend on the processing

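The number of Gzmc-high cells stayed between 196 and 335 over all alternatives. Their share of the suffix 2 gate was 50.2% with a Gzmc minimum of 3 UMIs, 37.1% with 10, 35.0% with a four-gene sum of at least 500 CPM and 31.8% with cells thinned before the rule. With the sum at 500 CPM, list medians were 0.84 (NK receptors), -0.44 (S phase) and 0.13 (homing, opposite in sign). With both suffixes pooled, where Gzmc-low cells come mostly from suffix 1, they were 0.50 (NK receptors), 0.35 (ILC1 genes), 0.0624 (transcription factors), -0.43 (S phase), -0.30 (G2/M), 0.27 (homing) and 0.31 (cytokine receptors). The ILC1, transcription factor, G2/M, homing and cytokine receptor medians then had the opposite sign to suffix 2 alone, and Ube2c (-0.64), Tuba1c (-0.39), Cxcl10 (0.20) and Il7r (0.53) reversed. Thinning before the rule gave -0.22 (S phase), 0.12 (G2/M), 0.12 (cytokine receptors, opposite in sign) and -0.0623 (Cenpf, reversed). Cells with at most 1 UMI of Mki67 and Top2a, both on the G2/M list, so that the setting itself lowers that list, gave -0.19 (S phase), 0.0127 (G2/M), -0.0665 (Ube2c, reversed) and -0.26 (Cenpf, reversed). The S phase median (-0.04 as reported) was also 0.11 without Scrublet calls, 0.15 as a mean of per-cell CPM and 0.11 thinned after grouping, and the G2/M median 0.31 with Gzmc at 300 CPM and 0.67 against cells without Gzmc. Without the cell with most UMIs of a gene in each group, an alternative chosen after seeing the data, Mcpt2 (0.0694) and Cxcl10 (0.50) reversed. The cause was not tested. The other 147 alternative values for counts and lists stayed within their intervals or 1.5 times. For the 30 named genes, 392 alternative values stayed within their intervals, 138 moved outside them in the same direction and 9 reversed. Over the alternatives Ccl1 ran from 3.25 to 6.38, Ccl4 from 0.389 to 3.69, Sox4 from -2.98 to -0.39 and Plac8 from -3.65 to -0.643. No paired analysis was possible because each suffix is 1 library. With 44 Gzmc-high cells, suffix 1 limits what can be read of genes under about 10 CPM.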
